A study of Mus musculus with 16 samples.

Results

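Klf2, Klf4, Klf5, Esrrb, Tbx3, Tfcp2l1, Nr5a2 and Nr0b1 are transcription factors of the naive state, the state of the pre-implantation epiblast that mouse embryonic stem cells keep in culture with LIF and kinase inhibitors. The 8 genes were taken by name from a table of normalized read counts with 14552 genes, all 8 were found, and all 8 were among the 13355 genes whose mean was 10 or more and which were therefore tested. The cells were E14 mouse embryonic stem cells of 1 genotype, Ddx10-AID with Tir1: DDX10, a DEAD-box RNA helicase, carries an auxin-inducible degron, and TIR1 is the plant F-box protein that directs a tagged protein to degradation when auxin is present. Auxin, as indole-3-acetic acid at 500 µM, was given for 2, 4, 6 or 12 h or for 1 or 2 days (6 groups), a further group had 2 days of auxin and then 2 days without it (withdrawal), and the last group was untreated. Each of the 8 groups had 2 mRNA sequencing libraries. All 8 groups shared the genotype and a medium with serum, 1000 U/mL LIF, 3 µM of the GSK3 inhibitor CHIR99021 and 1 µM of the MEK inhibitor PD0325901. A line without the tag was not analysed under auxin here, so effects of auxin itself and of DDX10 loss cannot be told apart. The labels do not state separate cultures for the 2 libraries in a group, so a p-value covers the spread of these libraries alone, and that spread may be technical.

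In this medium, LIF acts through JAK kinases and STAT3, CHIR99021 relieves TCF7L1 repression through beta-catenin, and PD0325901 blocks FGF/ERK signalling. These inputs are known to converge on the 8 factors: Klf4 and Tfcp2l1 are STAT3 targets, Esrrb is a target of GSK3 inhibition, and Klf2 is a factor on which cells depend when MEK is inhibited. The 8 factors in turn act at regulatory DNA together with OCT4 (Pou5f1), SOX2 and NANOG, Nr0b1 through its protein partners. The transcripts of the 8 are lost as cells leave the naive state.

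Nr0b1 was the member with the largest change: its transcript fell under auxin to 579 and 620.3 normalized counts at 12 h, against 2327 and 2232 in untreated cells, and stood at 2784 and 2620.4 after withdrawal. Klf4 was higher at 2 days of auxin, with 5377 and 5464 against 3379.8 and 1915 in untreated cells, and Nr5a2 was higher at 2 days, with 2168 and 2254 against 1692 and 1444. Klf2 and Klf5 fell at 4 and 6 h (Klf5 also at 12 h), and at 2 days Klf2 was called higher and Klf5 was not called. Tfcp2l1 was called higher at every one of the 6 times under auxin, while Esrrb was called in none of the comparisons with untreated cells. Of 31 member changes called over the 12 comparisons made, 9 kept their call in each of the 13 or 14 alternative settings run for them. These 9 were the lower Nr0b1 level at 6 h, 12 h, 1 day and 2 days against untreated and at 12 h against 2 h, the higher Nr0b1 level after withdrawal against 2 days, the higher Klf4 and Nr5a2 levels at 2 days against untreated, and the lower Nr5a2 level after withdrawal against 2 days. A change is called where the Benjamini-Hochberg adjusted p of the limma test over all 13355 genes is below 0.05, and each log2 change is a difference of log2(value + 1).

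**Figure D1:**
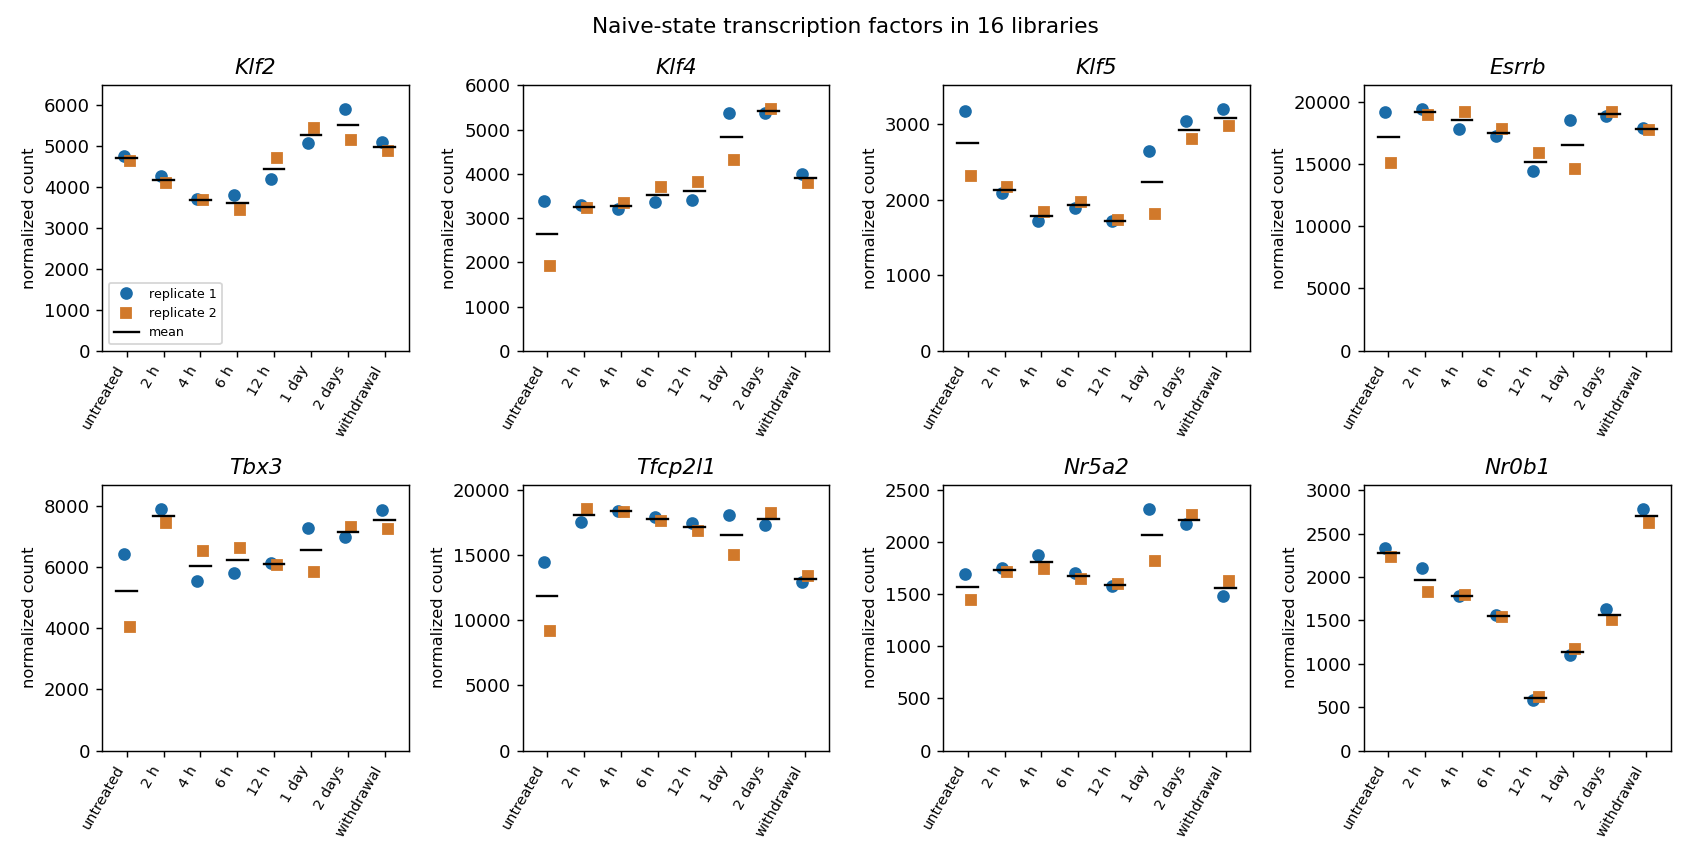
Normalized count (y axis, linear, from 0) of each of the 8 genes in the 16 libraries, by group (x axis, from untreated through 2 days of auxin, then withdrawal). Circles are replicate 1, squares are replicate 2 and bars are the mean of both. Nr0b1 is lowest at 12 h, with 579 and 620.3, and the untreated libraries of Klf4, Tbx3 and Tfcp2l1 lie far apart.

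The untreated libraries differed from each other more than those of any other group, and this bears on every comparison with untreated cells. All 8 genes were lower in untreated replicate 2 than in replicate 1. By gene the log2 difference was -0.82 for Klf4, -0.67 for Tbx3, -0.65 for Tfcp2l1, -0.46 for Klf5, -0.35 for Esrrb, -0.23 for Nr5a2, -0.06 for Nr0b1 and -0.04 for Klf2. Over all tested genes 53.3% were lower in untreated replicate 2, and the SD over genes of the log2 difference between replicates was 0.62 in untreated cells, 0.53 at 1 day and 0.37 to 0.41 in the other 6 groups. At 1 day, 6 of the 8 genes were lower in replicate 2, by up to 0.55 on the log2 scale for Klf5, and Klf2 and Nr0b1 were not. Of 18 other naive genes 11 were lower in untreated replicate 2, and of 14 genes of the formative or primed state, which follows the naive state, 4 were lower there. In untreated replicate 2 against replicate 1, Stat3, the transducer of LIF signalling, had 1045 against 2310.1, and the naive genes Gbx2 and Fbxo15 had 104 against 492 and 1775 against 3211. The formative or primed genes Lef1, Dnmt3a and Otx2 had 194 against 20.02, 3281 against 1089, and 459 against 269.8, and all 6 were picked with their values in view. Other genes of these lists went the other way. Among them, the naive genes Zfp42 and Dppa5a had 12106 against 11173 and 23631 against 21243. The formative or primed gene Foxd3 had 593 against 842. The part of this library difference in the results was not tested, and values with 1 untreated library left out stand below beside the calls of the 8 genes, and of the other genes named at 12 h and 2 days, where that ends a call or moves it by over 1.5 times.

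**Figure D2:**
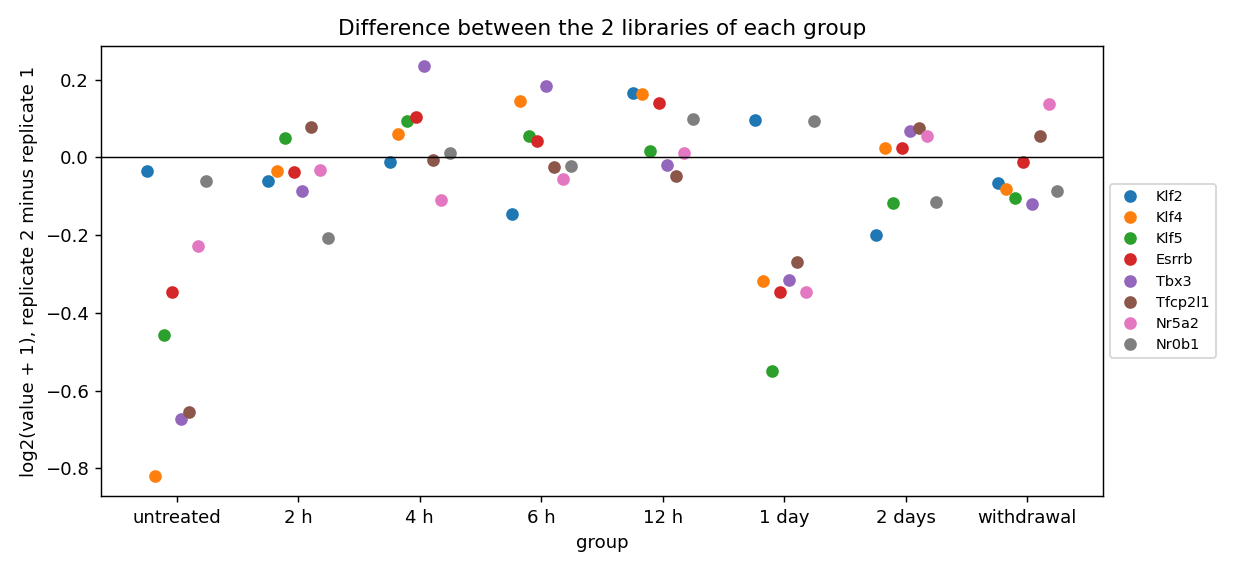
Log2 difference between the 2 libraries of a group, replicate 2 minus replicate 1 (y axis), for each of the 8 genes (colours) in each group (x axis). In untreated cells all 8 points lie below 0, down to -0.82 for Klf4, and at 1 day 6 of 8 lie below 0.

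The libraries held an estimated 13.6 to 17.5 M (10 to the power 6) reads in genes, and 1 read was worth about 0.89 to 1.245 normalized counts. The values of the 8 genes, 579 or more in every library, thus stand close to their numbers of reads. Ddx10 transcript, which does not measure the degraded protein, was 1433 to 1509 in untreated cells, 1847 to 2046 after 2 h of auxin, 1855 to 1886 after 4 h, 1675 to 1676 after 6 h, 1305 to 1312 after 12 h, 889 to 1159.7 after 1 day, 997 to 1041 after 2 days and 1498 to 1695 with withdrawal. It was above both untreated libraries at 2, 4 and 6 h and below both at 12 h, 1 day and 2 days. The libraries of 2 to 12 h stood apart from the other 8 libraries in 1015 genes (7.6% of those tested) whose values in the 2 sets do not overlap, and 0 of the 8 genes are among these. The labels do not say whether the 2 to 12 h libraries share a technical step. They are also the early times of auxin, so a technical and a time effect cannot be told apart. The stem cell markers Pou5f1, Sox2, Nanog, Zfp42 and Sall4 were between 4146 and 25252 in all libraries. Some markers of other cell types were as abundant as members, among them Sparc (1527 to 4439), Tubb3 (1089.8 to 2337) and Tfap2c (394 to 1775), and some moved with time. The summed level of 9 primitive endoderm markers was 10100.1 to 10661 at 2 days, against 2402 to 4589 in untreated cells, mostly from Sparc, Col4a1 and Lama1. Over all libraries Gata6, Sox17, Gata4, Pdgfra, Dab2 and Amn reached at most 24.0, 13.7, 44.4, 50.8, 57.9 and 21.1. Of 8 tested primitive endoderm markers, 5 were called higher and 0 lower at 2 days, against 21% and 23.8% of all tested genes. The sum of 9 genes of the 2-cell-stage-like state was 4954 to 5409 at 2 days, against 454 to 1102 in untreated cells. Their part in the results was not tested, and in such bulk libraries a change in the share of cells of a type and a change in RNA per cell cannot be told apart.

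The 8 genes differ in their usual level, which can be compared only per length of transcript. Per kb of annotated exon, Esrrb ranged from 2386 to 3207 normalized counts over the 16 libraries, Klf2 from 1857 to 3193 and Tfcp2l1 from 975 to 1964. Nr5a2 was the lowest of the 8 in each library, at 245 to 393 per kb, and Klf5 ranked 6 or 7, at 329.6 to 615. Nr0b1 had the widest range, 320.1 to 1539.8 per kb, and ranked between 3 and 7. Esrrb ranked 1 or 2 of the 8 in each library and Klf2 between 1 and 3.

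Of the 8 genes, 6 had RefSeq promoter sequence in the build GRCm38.p6, and the 250 bases before the annotated start are shown for Tfcp2l1, Esrrb and Nr5a2, whose windows hold a searched motif, and for Nr0b1, the member that changed most and whose window holds none. Capitals mark matches to the KLF motif GGGNGTGG in Tfcp2l1 and Nr5a2 and to the STAT motif TTCNNNGAA in Esrrb, searched on both strands. The windows are on the strand of the gene: chr1:118627695-118627944 (plus strand) for Tfcp2l1, chr12:86360867-86361116 (plus strand) for the outer start of Esrrb, chr1:136953631-136953880 (minus strand) for an inner start of Nr5a2, and chrX:86191525-86191774 (plus strand) for Nr0b1.
Tfcp2l1: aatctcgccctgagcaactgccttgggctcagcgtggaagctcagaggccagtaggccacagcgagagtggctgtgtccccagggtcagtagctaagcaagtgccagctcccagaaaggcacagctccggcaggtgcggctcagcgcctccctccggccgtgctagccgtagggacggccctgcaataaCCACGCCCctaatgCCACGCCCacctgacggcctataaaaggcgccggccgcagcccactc
Esrrb: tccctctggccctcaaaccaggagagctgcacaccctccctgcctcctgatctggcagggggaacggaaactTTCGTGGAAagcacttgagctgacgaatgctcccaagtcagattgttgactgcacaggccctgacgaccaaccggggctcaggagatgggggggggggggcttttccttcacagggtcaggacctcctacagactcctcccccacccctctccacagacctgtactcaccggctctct
Nr5a2: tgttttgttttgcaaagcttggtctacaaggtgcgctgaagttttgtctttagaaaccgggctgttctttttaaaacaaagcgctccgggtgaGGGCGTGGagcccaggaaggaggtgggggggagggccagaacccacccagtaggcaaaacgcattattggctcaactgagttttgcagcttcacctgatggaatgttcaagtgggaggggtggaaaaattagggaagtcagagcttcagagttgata
Nr0b1: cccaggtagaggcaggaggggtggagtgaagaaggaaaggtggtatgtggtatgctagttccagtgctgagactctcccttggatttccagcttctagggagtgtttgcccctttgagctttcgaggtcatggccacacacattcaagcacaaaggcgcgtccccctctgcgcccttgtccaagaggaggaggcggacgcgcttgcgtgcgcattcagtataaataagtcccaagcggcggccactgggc
The 2 matches in Tfcp2l1 lie 61 to 54 and 47 to 40 bases before the start, on the opposite strand. The match in Esrrb lies 178 to 170 bases before the start and that in Nr5a2 157 to 150 bases before it. Among 32817 promoters of the same length, 15.9% hold the KLF motif and 7.01% the STAT motif. No match to either was found in the windows of Klf2 and Klf4 or in the other starts of Esrrb and Nr5a2. Searches for TCAAGGNCA (ESRRB and NR5A2), CTTTGAT (TCF/LEF), ATTTGCAT (OCT octamer), CATTGT (SOX), AGGTGTGA (TBX) and CCAGNNNNNNCCAG (TFCP2L1), which stand in 1.39%, 3.21%, 1.60%, 10.7%, 1.12% and 2.79% of promoters, gave 0 matches in the members' 8 windows. A match is only a stretch of these letters.

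Nr0b1 (DAX1) is an orphan nuclear receptor without a DNA-binding domain of the usual kind, known in embryonic stem cells as a partner and repressor of OCT4, ESRRB and NR5A2 activity. The gene lies on chromosome X at 86191764 to 86195947 (GRCm38, plus strand). Its normalized counts were 2327 and 2232 in untreated cells, 2104 and 1821 after 2 h of auxin, 1777 and 1792.4 after 4 h, 1557 and 1533 after 6 h, 579 and 620.3 after 12 h, 1097 and 1171 after 1 day, 1628 and 1502 after 2 days, and 2784 and 2620.4 with withdrawal. Both libraries of each auxin group were below both untreated libraries, both withdrawal libraries were above them, and the 12 h libraries were the lowest of the 16. Against untreated cells the log2 change was -0.35 ± 0.08 (SE) at 4 h, -0.56 ± 0.08 at 6 h, -1.93 ± 0.08 at 12 h, -1.01 ± 0.08 at 1 day and -0.54 ± 0.08 at 2 days, with limma adjusted p of 0.011, 0.000399, 2.11e-08, 1.32e-06 and 0.000146. The mean at 12 h was 26.3% of the untreated mean. The 2 h value, -0.22 ± 0.08, did not pass the test (adjusted p = 0.0936). Leaving out either 4 h library ended the 4 h call (adjusted p = 0.0733 and 0.0553), with the change still -0.35 and -0.36. Nr0b1 then rose between the later times: 2 days was above 1 day by 0.46 ± 0.08 on the log2 scale (adjusted p = 0.00621), a call that ended without 2 days replicate 1 (0.41, adjusted p = 0.0709). The untreated libraries lay closest for Klf2 and next for Nr0b1, and leaving out either untreated library left its 12 h change between -1.96 and -1.90.

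Klf4, a zinc-finger factor known as a STAT3 target and as a reprogramming factor, lies on chromosome 4 at 55527143 to 55532466 (minus strand). It had 3379.8 and 1915 normalized counts in untreated cells, 3299 and 3221 after 2 h of auxin, 3212 and 3349.7 after 4 h, 3355 and 3709.7 after 6 h, 3411 and 3822 after 12 h, 5371 and 4311 after 1 day, 5377 and 5464 after 2 days, and 4006 and 3788 with withdrawal. The 1 day and 2 days libraries were above every other library, and the untreated libraries overlapped those of 2, 4 and 6 h. The log2 change against untreated was 0.50 ± 0.18 (SE) at 12 h, 0.92 ± 0.18 at 1 day and 1.09 ± 0.18 at 2 days, with limma adjusted p of 0.0486, 0.00169 and 0.000301. The size of these changes rests on untreated replicate 2: without it they were 0.10 (adjusted p = 0.56) at 12 h, 0.51 (0.0057) at 1 day and 0.68 (0.000536) at 2 days. Leaving out 12 h replicate 1 or 2 also ended the 12 h call (adjusted p = 0.0935 and 0.217). Without untreated replicate 1, the 12 h change was 0.91, and the values of 2, 4 and 6 h were called too, at 0.77, 0.78 and 0.88. Klf4 was 0.48 lower on the log2 scale after withdrawal than at 2 days (SE 0.18, adjusted p = 0.0516), which did not pass the test although the 2 groups do not overlap. It was called lower with rescaling by upper quartiles (-0.53, limma adjusted p = 0.0269), with library weights (adjusted p = 0.00203) and with these 2 groups fitted alone (0.000227), and over the other alternatives its adjusted p was 0.0505 to 0.181.

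Klf2, which shares DNA targets with KLF4 and KLF5 and is known to be needed when MEK is inhibited, lies on chromosome 8 at 72319033 to 72321656 (plus strand). Its normalized counts were 4751 and 4635 in untreated cells, 4263 and 4084 after 2 h of auxin, 3708 and 3676 after 4 h, 3791 and 3429 after 6 h, 4187 and 4701 after 12 h, 5079.8 and 5431 after 1 day, 5898 and 5136 after 2 days, and 5089.9 and 4866 with withdrawal. The 2, 4 and 6 h libraries were below both untreated libraries, and those of 1 day, 2 days and withdrawal were above both. Klf2 fell by 0.35 on the log2 scale at 4 h and by 0.38 at 6 h, each with SE 0.08 (limma adjusted p = 0.0107 and 0.00466), and rose by 0.23 ± 0.08 at 2 days (adjusted p = 0.0339). The 4 h call ended without 4 h replicate 1 (adjusted p = 0.0638) or replicate 2 (0.0612), and the 6 h call without 6 h replicate 2 (-0.31, 0.0605). The 2 days call ended without untreated replicate 1 (0.25, adjusted p = 0.0599), without untreated replicate 2 (0.21, 0.112) and without 2 days replicate 1 (0.13, 0.303).

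Klf5, the third Krüppel-like factor of the set, known to support self-renewal and to restrain primitive endoderm genes, lies on chromosome 14 at 99298691 to 99315036 (plus strand). It had 3180.2 and 2316 normalized counts in untreated cells, 2092 and 2165 after 2 h of auxin, 1723 and 1838 after 4 h, 1893 and 1968 after 6 h, 1714 and 1734 after 12 h, 2649 and 1809.7 after 1 day, 3043 and 2804 after 2 days, and 3201 and 2978 with withdrawal. All 8 libraries of 2 to 12 h were below both untreated libraries, and those of 1 day, 2 days and withdrawal overlapped the untreated range. The log2 change was -0.61 ± 0.15 (SE) at 4 h, -0.49 ± 0.15 at 6 h and -0.65 ± 0.15 at 12 h, with limma adjusted p of 0.0148, 0.0329 and 0.00504. Leaving out untreated replicate 1, the higher untreated library, ended all 3 calls (-0.38, -0.26 and -0.43, adjusted p = 0.12, 0.263 and 0.0627). So did leaving out either library at 4 h (adjusted p = 0.104 and 0.0543) or at 6 h (0.149 and 0.103). The changes of -0.35 at 2 h, -0.31 at 1 day and 0.11 at 2 days did not pass the test. Without untreated replicate 2 the 2 h and 1 day values were called lower, at -0.58 and -0.54, and without 1 day replicate 1 the 1 day value was -0.58.

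Esrrb and Nr5a2 are orphan nuclear receptors that bind closely related DNA sequences as monomers, and NR5A2 can drive Pou5f1 transcription. Esrrb (chromosome 12, 86361117 to 86521628, plus strand) had 19172 and 15077 normalized counts in untreated cells, 19394 and 18887 after 2 h of auxin, 17821 and 19166 after 4 h, 17242 and 17762 after 6 h, 14429 and 15889 after 12 h, 18493 and 14558.5 after 1 day, 18849.6 and 19178 after 2 days, and 17886 and 17757 with withdrawal. The untreated libraries enclose or overlap those of each other group, and none of the 7 changes against untreated passed the test, with values from -0.17 at 12 h to 0.17 at 2 h and SE 0.11. With 1 untreated library left out it was called in 2 comparisons, lower at 12 h without replicate 2 (-0.34, limma adjusted p = 0.0296) and higher at 2 days without replicate 1 (0.33, 0.0257). Nr5a2 (chromosome 1, 136842571 to 136960448, minus strand) had 1692 and 1444 in untreated cells, 1753 and 1716 after 2 h of auxin, 1872 and 1736 after 4 h, 1704 and 1640.0 after 6 h, 1581 and 1595 after 12 h, 2316 and 1821 after 1 day, 2168 and 2254 after 2 days, and 1480.0 and 1628 with withdrawal. The libraries of 2 h, 4 h, 1 day and 2 days were above both untreated libraries, and the withdrawal libraries lay within the untreated range. Nr5a2 was higher than untreated by 0.39 ± 0.11 on the log2 scale at 1 day and by 0.50 ± 0.11 at 2 days (limma adjusted p = 0.0117 and 0.00182). The 1 day call ended without 1 day replicate 1 (0.22, adjusted p = 0.101) and without untreated replicate 2 (0.28, 0.104).

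Tbx3, a T-box factor known to act downstream of PI3K signalling in the naive network, lies on chromosome 5 at 119670669 to 119684724 (plus strand). An annotated antisense gene, Tbx3os1, overlaps its exons; whether the counting used strand is not stated, so reads of the pair cannot be told apart. Tbx3 had 6432 and 4035 normalized counts in untreated cells, 7915 and 7457 after 2 h of auxin, 5564 and 6545 after 4 h, 5827 and 6624 after 6 h, 6154 and 6067 after 12 h, 7293 and 5859.9 after 1 day, 6989 and 7330.0 after 2 days, and 7867 and 7242 with withdrawal. The 2 h, 2 days and withdrawal libraries were above both untreated libraries, while those of 4, 6 and 12 h and of 1 day overlapped the untreated range. Tbx3 was called higher at 2 h (0.59 ± 0.16, SE, limma adjusted p = 0.0289) and at 2 days (0.49 ± 0.16, 0.0267). Without untreated replicate 2 these changes were 0.26 (adjusted p = 0.184) and 0.15 (0.366), without untreated replicate 1 they were 0.93 and 0.83, and leaving out either library of 2 h (0.13 and 0.113) or of 2 days (0.0723 and 0.116) also took the adjusted p above 0.05. Without untreated replicate 1, Tbx3 was called higher at 4, 6 and 12 h and at 1 day too, by 0.58, 0.62, 0.60 and 0.70.

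Tfcp2l1, a grainyhead-family factor and STAT3 target, lies on chromosome 1 at 118627945 to 118685168 (plus strand). It had 14479.9 and 9199 normalized counts in untreated cells, 17557 and 18538 after 2 h of auxin, 18388 and 18297 after 4 h, 17950.2 and 17640.1 after 6 h, 17415 and 16839 after 12 h, 18058 and 14992 after 1 day, 17265 and 18182 after 2 days, and 12907 and 13409.5 with withdrawal. All 12 libraries under auxin were above both untreated libraries, and both withdrawal libraries lay between the untreated values. Against untreated the log2 change was 0.64 at 2 h, 0.67 at 4 h, 0.62 at 6 h, 0.57 at 12 h, 0.51 at 1 day and 0.62 at 2 days, each with SE 0.15 and limma adjusted p between 0.00366 and 0.0157. With untreated replicate 1 as the only untreated library, the changes were 0.32, 0.34, 0.30, 0.24, 0.18 and 0.29, and the calls of 12 h (adjusted p = 0.0551) and 1 day (0.152) ended. With untreated replicate 2 as the only one, they were 0.97, 1.00, 0.95, 0.90, 0.84 and 0.95. Leaving out 2 h replicate 2, 4 h replicate 1, 6 h replicate 1, 12 h replicate 1 or 1 day replicate 1 also ended the call of that time (adjusted p = 0.0899, 0.0528, 0.0526, 0.0576 and 0.105).

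**Figure D3:**
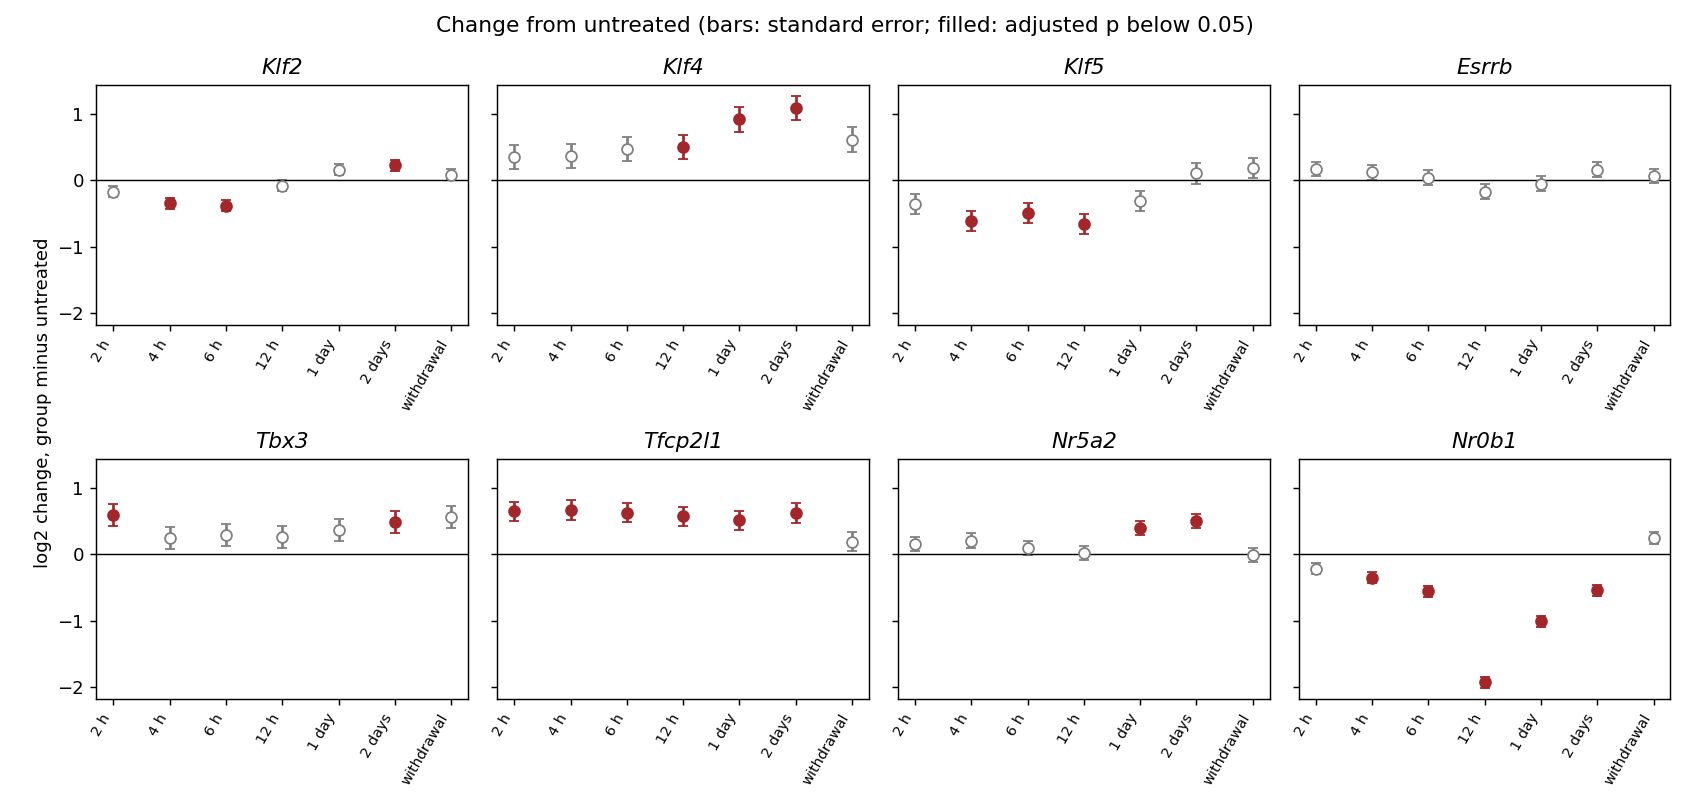
Log2 change from untreated (y axis, group minus untreated, bars are standard errors) for each gene at the 6 times under auxin and after withdrawal (x axis). Filled points passed the test at an adjusted p below 0.05. Nr0b1 reaches -1.93 at 12 h, Klf4 reaches 1.09 at 2 days, and no point is filled after withdrawal.

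The calls of the 8 genes at each time were as follows, and the difference in their split between times was not tested. At 2 h, 2 were called higher (Tbx3 and Tfcp2l1) and 0 lower, against 6.75% of all tested genes higher and 8.45% lower. At 4 h, 1 was higher (Tfcp2l1) and 3 lower (Klf2, Klf5 and Nr0b1), against 8.86% and 10.2%. The same 4 genes were called at 6 h, in the same directions, against 10.9% higher and 13.4% lower. At 12 h, 2 were higher (Klf4 and Tfcp2l1) and 2 lower (Klf5 and Nr0b1), against 14.8% and 18.3%. At 1 day, 3 were higher (Klf4, Tfcp2l1 and Nr5a2) and Nr0b1 was lower, against 15.9% and 17.7%. At 2 days, 5 were higher (Klf2, Klf4, Tbx3, Tfcp2l1 and Nr5a2) and Nr0b1 was lower, against 21% and 23.8%. The median log2 change of the 8 was 0.16 at 2 h, 0.16 at 4 h, 0.07 at 6 h, -0.03 at 12 h, 0.26 at 1 day and 0.36 at 2 days, beside medians of all tested genes between -0.01 and 0.02. The split depended on the untreated library. Without untreated replicate 1 the 12 h changes were 0.91 for Klf4, 0.60 for Tbx3, -0.43 for Klf5 and -1.90 for Nr0b1. Without untreated replicate 2 they were 0.10, -0.07, -0.88 and -1.96. An F-test over the 6 times called 6 of the 8, against 65.2% of all tested genes, and left out Esrrb (adjusted p = 0.107) and Tbx3 (0.0876).

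**Figure D4:**
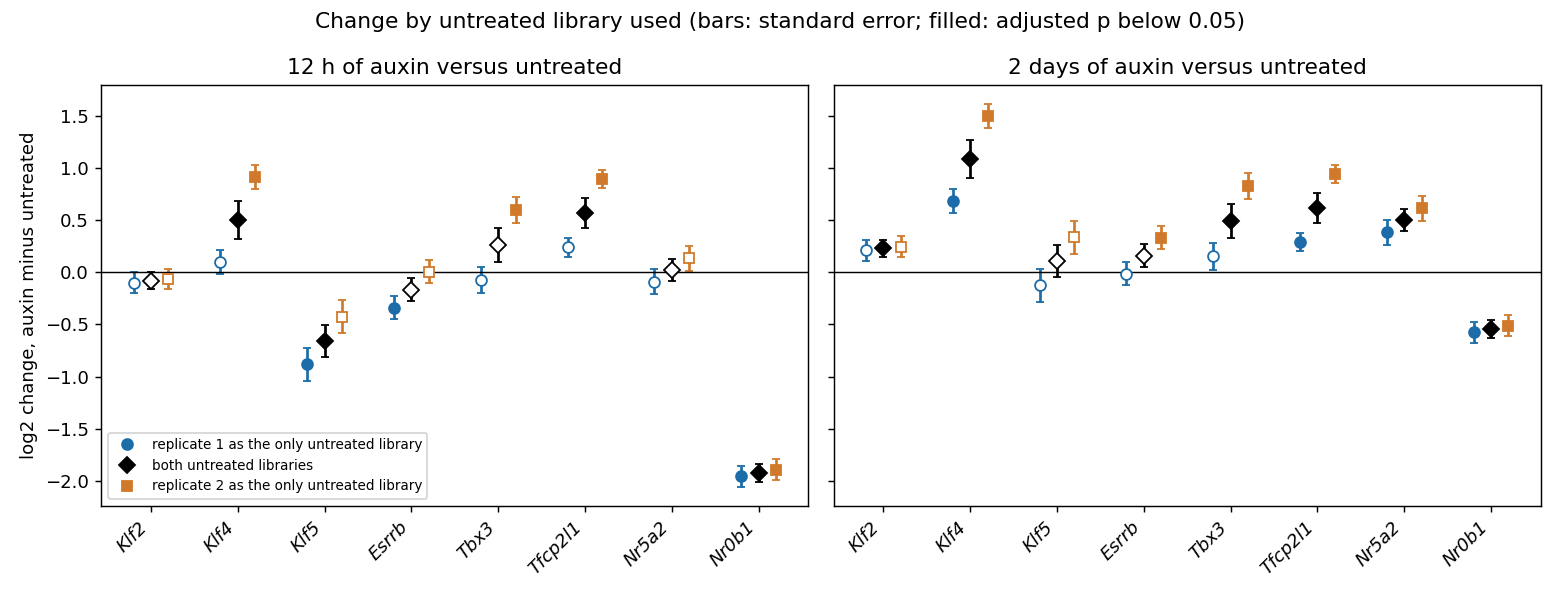
Log2 change against untreated (y axis, bars are standard errors) at 12 h and at 2 days of auxin for each gene (x axis), with replicate 1 as the only untreated library (circles), both untreated libraries (diamonds) or replicate 2 as the only one (squares). Filled symbols passed the test. At 2 days Klf4 ranges from 0.68 to 1.501 and Tbx3 from 0.15 to 0.83, while Nr0b1 ranges from -0.57 to -0.51.

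The log2 changes within the libraries of 2 to 12 h do not use the untreated values. Their SE and p do, since the spread is pooled over all 16 libraries. For Klf4 the SE was 0.18 in this fit and 0.07 with the libraries of 2 to 12 h fitted alone. At 4 h against 2 h of auxin 0 of the 8 genes were called in either direction, against 1.77% of all tested genes higher and 0.681% lower, and 1912 genes had an unadjusted limma p below 0.05. At 6 h against 2 h, Nr0b1 was lower by 0.34 (SE 0.08, limma adjusted p = 0.0239) and 0 were higher, against 3.35% lower and 4.45% higher. That call ended without 6 h replicate 1 (adjusted p = 0.115), 6 h replicate 2 (0.157) or 2 h replicate 1 (0.235). At 12 h against 2 h, Nr0b1 was lower by 1.71 (SE 0.08, adjusted p = 5.17e-08) and Esrrb by 0.34 (SE 0.11, 0.0403), and 0 were higher, against 13.7% lower and 10.9% higher. The Esrrb call ended when any of the 4 libraries was left out (adjusted p from 0.074 to 0.229). With these 8 libraries fitted alone, an alternative chosen after the data were seen, the SE was smaller for each of the 8 genes, and more were called. Klf5 (-0.26) and Tbx3 (-0.35) were then lower at 4 h than at 2 h, against 3.64% of all genes. At 6 h, Klf2 (-0.21), Tbx3 (-0.31) and Nr0b1 (-0.34) were lower, against 10%. At 12 h, Klf5 (-0.30), Esrrb (-0.34), Tbx3 (-0.33) and Nr0b1 (-1.71) were lower, against 21.2%. Klf4 and Tfcp2l1 were called in none of these 3 comparisons in either fit, with changes between 2 h and 12 h of 0.15 and -0.08.

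The withdrawal group asks how far the transcripts return once auxin is removed. Against untreated cells 0 of the 8 genes were called in either direction after withdrawal, against 1.72% of all tested genes higher and 1.07% lower, with 2308 genes at an unadjusted limma p below 0.05. The changes from untreated ran from -0.01 for Nr5a2 to 0.61 for Klf4 (adjusted p = 0.0976), with Tbx3 at 0.57 (0.0893) and Nr0b1 at 0.24 (0.138). Without untreated replicate 1 the changes after withdrawal were 1.02 for Klf4, 0.90 for Tbx3 and 0.52 for Tfcp2l1, and without replicate 2 they were lower. The absence of calls therefore does not show that these genes returned to the untreated level. Against 2 days of auxin, Nr0b1 was higher after withdrawal by 0.79 ± 0.08 on the log2 scale (limma adjusted p = 6.83e-06), and Nr5a2 was lower by 0.51 ± 0.11 (0.0018). Tfcp2l1 was lower by 0.43 ± 0.15 (0.0307), a call that ended when any of the 4 libraries was left out (adjusted p from 0.0767 to 0.137, changes from -0.47 to -0.39). These are 1 higher and 2 lower of 8, against 22.2% of all tested genes higher and 19.1% lower. At 2 days against 1 day of auxin, Nr0b1 was the member called higher and 0 were lower, against 1.57% higher and 4.07% lower.

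Of the 4 core factors with which the 8 act, 0 were called higher and 2 lower at 12 h, against 14.8% and 18.3% of all tested genes, and 1 was higher and 1 lower at 2 days, against 21% and 23.8%. Pou5f1 (OCT4) was 13539 and 13547 at 12 h and 18902 and 17659 at 2 days, against 23171 and 22339 in untreated cells, and fell by 0.75 and 0.32 on the log2 scale (limma adjusted p = 6.55e-06 and 0.00334). After withdrawal it was 25252 and 24788. Nanog had 17573 and 16833 at 2 days, against 15332 and 14325 in untreated cells (0.21, limma adjusted p = 0.0131), a call that ended without untreated replicate 2 (0.17, adjusted p = 0.081). Sox2 did not pass the test at 12 h (-0.09) or 2 days (-0.12), and Sall4, a zinc-finger partner of OCT4, was lower at 12 h (-0.32, limma adjusted p = 0.0285), a call that ended without untreated replicate 1 (-0.13, adjusted p = 0.302). At 2 days Sall4 was not called (0.21) but was called higher without untreated replicate 1 (0.41, limma adjusted p = 0.00205).

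Among 18 other naive genes, 9 were called higher and 5 lower at 2 days, against 21% and 23.8% of all tested genes, and 4 higher and 7 lower at 12 h, against 14.8% and 18.3%. The median log2 change of the list was 0.46 at 2 days and -0.21 at 12 h. Spic, an ETS-family factor, had the smallest p of the list at 2 days, with 599 and 547 at 2 days against 128 and 71.8 in untreated cells. Jam2 and Pecam1, surface adhesion proteins, had 5765 and 5982 against 3884 and 3766, and 2790.5 and 2936 against 1717 and 1728. At 12 h Jam2 and Pecam1 were already called higher, by 0.52 and 0.63 on the log2 scale (limma adjusted p = 1.3e-05 and 1.57e-05). Zfp42 (REX1), a standard naive marker, had 8313 and 8322 at 12 h, against 11173 and 12106 in untreated cells (-0.48, limma adjusted p = 3.78e-05). Dppa2 was lower at 12 h too (-0.68, limma adjusted p = 6.95e-05). Without untreated replicate 2, fewer were called at 2 days, both of this list and of all tested genes. Without untreated replicate 1, more of the list were called higher at 12 h, but fewer of all tested genes.

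Of 20 genes of the LIF, WNT and ERK pathways, 5 were called higher and 8 lower at 2 days, against 21% and 23.8% of all tested genes, with a median log2 change of -0.09. The ERK feedback gene Spry4 had 33.7 and 20.3 at 2 days, against 748 and 584 in untreated cells, a log2 change of -4.61 (limma adjusted p = 1.52e-08). Etv5, an ERK-responsive ETS factor, was 8795 and 8788 against 10990.9 and 11589, Mapk3 (ERK1) was 749 and 756 against 1371 and 1486, and the WNT target Axin2 was 409 and 481 against 678 and 1071. The log2 change of Axin2 was -0.94 (limma adjusted p = 0.00108), and -0.61 without untreated replicate 2 (adjusted p = 0.0131). Without untreated replicate 2 the count of higher genes in this list was smaller, as was the share of all tested genes called higher. Of 14 formative or primed genes, 1 was higher at 2 days (Cdh2) and 7 lower, against 21% and 23.8%, and at 1 day 0 were higher and 10 lower, against 15.9% and 17.7%. The median log2 change of this list was -0.84 at 2 days and -1.01 at 1 day. Without untreated replicate 2, fewer were lower at 1 day, both of this list and of all tested genes. Utf1, a chromatin protein of pluripotent cells, had 1023 and 1109.9 at 12 h and 2278 and 2061 at 2 days, against 5013 and 4489.7 in untreated cells. Dnmt3b, a de novo DNA methyltransferase, had 1409 and 1438 at 2 days, against 2732 and 3254. Of 18 tested relatives of the 8 factors in the KLF, T-box, grainyhead and nuclear receptor families, 7 were higher and 3 lower at 2 days, against 21% and 23.8%, with a median log2 change of 0.22. The 2 with the smallest p were Tbx4, with 136 and 111 against 10.8 and 15.5, and Tfcp2, with 452 and 549.97 against 252 and 139.

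The genes whose levels followed each member most closely were found by Pearson correlation of log2 values over the 16 libraries, among 10369 genes with a mean of at least 50. These are descriptions, since the libraries share groups and the disparity between the untreated libraries. Nr0b1 was followed by Eif4e2 (r = 0.949), Utf1 (0.944) and Vdac2 (0.933), all 3 lowest at 12 h. Tfcp2l1 was followed by Stat3 (0.956), Atg14 (0.927) and Rapgef1 (0.924), all 3 lowest in an untreated library. Klf4 went with Hoxb9 (0.949), Slc1a1 (0.949) and Ppp2r2c (0.948), highest at 2 days, and Klf2 with Igsf23 (0.947), Tm2d1 (0.947) and Coro1b (0.936). For Klf5 these were Yam1 (0.947), Syce1 (0.920) and D1Pas1 (0.915), for Nr5a2 Tlk2 (0.925), Cyr61 (0.917) and Derl1 (0.899), for Tbx3 Junb (0.888), Nfkbiz (0.865) and Ofd1 (0.857), and for Esrrb Suv420h1 (0.858), Pla2g4e (0.851) and Tnrc18 (0.851).

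Among pairs of the 8 genes themselves, the Pearson values over the 16 libraries were lower than the values given above. Those above were picked as the highest among 10369 genes, and the member pairs are few. The gap therefore cannot show that the members moved separately. The highest Pearson value of a member pair was 0.760 for Klf4 and Nr5a2, and the next was 0.663 for Klf4 and Tbx3. By Spearman rank correlation these pairs had only 0.338 and 0.335. The highest Spearman value was 0.747 for Klf2 and Klf4, whose Pearson value was 0.507, so the order of pairs depended on the measure. For some pairs, picked with their values in view, r had opposite signs in the 8 libraries of 2 to 12 h and in the other 8. A difference between the 2 sets was not tested, and each value rests on 8 libraries. Within the 2 to 12 h libraries Tfcp2l1 spanned only 16839 to 18538. Klf4 and Tfcp2l1 had r = -0.796 within the 2 to 12 h libraries and 0.959 within the others, which hold the untreated pair. Nr5a2 and Nr0b1 had 0.793 and -0.789, and Klf4 and Nr5a2 -0.729 and 0.822. Klf5 with Tbx3 (0.852 and 0.574) and Esrrb with Klf5 (0.694 and 0.867) kept the same sign in both sets.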

How the data were processed

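The 8 members and all gene lists were chosen with earlier results of these data known, as were the comparisons within the libraries of 2 to 12 h. The authors deposited a gene-level signal, normalized read counts: per the submitters' processing notes, which name Trim Galore, STAR, RSEM, DESeq2 and the build mm10, it came from mapped reads. The sources used here give no versions, annotation, filters or strand use. Of low values, 72.5% to 99.1% of those of 1884 genes with 1 transcript lay within 0.1 of a whole multiple (up to 20) of 1 step, against 36.0% to 45.1% for other genes, so whole reads were not recovered and no count test was run. A step of 0.89 to 1.245 per read gave the estimate of depth.

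A linear model of log2(value + 1) with group means was fitted to the 16 libraries together (limma 3.58.1, R 4.3.3, trend in the empirical Bayes step, 8 residual degrees of freedom). Genes with a mean of at least 10 were tested, Benjamini-Hochberg adjustment ran over all tested genes of each of 12 comparisons, and the threshold was 0.05. The log2 scale with a pseudocount of 1 understates changes of low genes. The code was tested on simulated data. The median SE was 0.158. Positions are from GENCODE M21 on GRCm38, the same assembly as mm10, where 14467 of 14552 gene IDs were found. Promoters are from RefSeq (GRCm38.p6).

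All 8 members are named in every comparison. From each other list up to 4 called genes with the smallest p are named (all 4 core genes), and for likeness the 3 genes with the highest correlation. Listed genes not analysed here include Fgf5, Klf17, Esrrg, Nr5a1, Nr0b2, Tbx1, Foxa2, Elf5, Hand1, Tcstv1, Pax3 and Mesp1.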

Additional observations from a re-analysis of the deposited data

Results flagged for a closer look

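For Nr0b1, Nr5a2 and Tfcp2l1 the change from untreated differed between 2 days of auxin and withdrawal by a test of the difference itself. This test equals the comparison of withdrawal with 2 days. Tfcp2l1 was lower after withdrawal (-0.43, limma adjusted p = 0.0307), but that call ended with any of the compared libraries left out. Nr0b1 changed by 0.24 after withdrawal and by -0.54 at 2 days, a difference of 0.79 on the log2 scale (limma adjusted p = 6.83e-06), with both withdrawal libraries above both 2 days libraries. Nr5a2 changed by -0.01 after withdrawal and by 0.50 at 2 days, a difference of -0.51 (limma adjusted p = 0.0018), with both withdrawal libraries below both 2 days libraries.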

How the results depend on the processing

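Of the 1312 recomputed log2 changes of members, 1170 kept their direction and their side of the threshold, 74 kept the direction but were no longer called, 36 became called and 32 changed sign; none of the 31 called changes changed sign in any alternative. With the replicate block, all 96 member changes kept their direction and call, for example 5 higher and 1 lower at 2 days; the replicate numbers did not pair the samples, since the replicate differences of all 28 pairs of groups correlated between -0.0614 and 0.0664. Neither other pseudocounts (0.5 and 5), nor other filters (none, or a mean of 50), nor rescaling by trimmed means moved any count of called members by over 1.5 times. With the compared groups fitted alone, 0 members were higher at 2, 4, 6 and 12 h and 1 day, 2 were higher at 2 days and 0 lower at 4 h; 1, 4 and 4 were lower at 4, 6 and 12 h against 2 h, and 0 higher at 2 days against 1 day. With library weights, 1 was lower at 4 h, 3 and 4 were lower at 6 and 12 h against 2 h, and 0 were higher at 2 days against 1 day. Rescaling by upper quartiles left 1 lower at 12 h against 2 h and turned the uncalled values of Nr5a2 after withdrawal to 0.001 and of Tfcp2l1 at 6 h against 2 h to 0.0105. Shares of all tested genes are not given for the compared groups fitted alone, library weights or upper quartiles, so these member counts are no result about the members. In fits chosen after the data were seen, the libraries of 2 to 12 h alone gave 2, 3 and 4 lower at 4, 6 and 12 h against 2 h. The shares of all tested genes lower there were 3.64%, 10% and 21.2%. The other 8 alone gave 1 higher at 1 day and 3 at 2 days, against 10.9% and 15.9% of all tested genes. They also gave 1 lower after withdrawal against 2 days (13.8% of all), and 0 higher at 2 days against 1 day (0.0524%). Leaving out each untreated library for the other lists and their named genes was also chosen then. These fits have fewer samples, and further causes were not tested.

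With 1 library left out, a group left with 1 library is assumed to vary like the others. The counts of called members moved with the library left out. Where an untreated library was left out, the share of all tested genes called moved too, so these counts are no result about the members. Uncalled log2 changes whose sign turned were, against untreated, Klf4 at 2 h (-0.052 to 0.77) and 4 h (-0.043 to 0.78), Tbx3 at 4 h (-0.092 to 0.58), 6 h (-0.05 to 0.62) and 12 h (-0.074 to 0.60), Nr5a2 at 6 h (-0.017 to 0.21), 12 h (-0.092 to 0.14) and withdrawal (-0.12 to 0.10), Klf2 at 12 h (-0.16 to 0.0026), Klf5 at 2 days (-0.12 to 0.33) and withdrawal (-0.043 to 0.41), Tfcp2l1 after withdrawal (-0.14 to 0.52), and Esrrb at 2 h (-0.0025 to 0.34), 4 h (-0.053 to 0.29), 6 h (-0.13 to 0.22), 12 h (-0.34 to 0.0062), 1 day (-0.22 to 0.12), 2 days (-0.012 to 0.33) and withdrawal (-0.11 to 0.24). At 4 h against 2 h these were Klf4 (-0.021 to 0.039), Esrrb (-0.10 to 0.0020) and Tfcp2l1 (-0.015 to 0.063), at 6 h against 2 h Tfcp2l1 (-0.059 to 0.019), and at 2 days against 1 day Klf2 (-0.032 to 0.17), Tbx3 (-0.027 to 0.29), Tfcp2l1 (-0.028 to 0.24) and Nr5a2 (-0.067 to 0.28). With 2 libraries a group, changes well above the median SE of 0.158 could stay uncalled. Examples are Klf4 (0.61, SE 0.18) and Tbx3 (0.57, SE 0.16) after withdrawal against untreated. A change that was not called is therefore not shown to be absent.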
